A study of Mus musculus with 10 samples.

Results

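Kinesins are motor proteins that use ATP to move along, or to take apart, microtubules. The family was taken here as every protein-coding gene of the deposited table whose name is Kif with a number, or Kifc with a number: 42 of 54446 genes. By their known roles 14 were placed with the mitotic motors, 13 with the transport motors, 10 with kinesin-2 and the ciliary kinesins and 5 in a remaining class. The RNA came from the esophagus of C57BL/6 mice, all of them WT, and was read by CEL-Seq, which samples the 3′ ends of polyadenylated transcripts. The OXA group (5 libraries, C1 and D1 to D4) came from mice with experimental eosinophilic esophagitis, provoked by oxazolone, a hapten that causes allergic inflammation, and the vehicle group (5 libraries, A1 to A5) from mice given vehicle in its place. The sources used here give no dose, route, schedule, age or sex, and no meaning for the library letters, which do not cross the groups, so that a batch marked by a letter and the treatment cannot be told apart. Beyond speaking of mice the labels do not say what a replicate is, so each p-value rests on the spread among these libraries alone, which may be technical.

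Mitotic kinesins act in dividing cells. Some slide antiparallel microtubules to push spindle poles apart, some work on chromosomes and kinetochores, and others bundle the central spindle and help the daughter cells to separate. Transport kinesins carry vesicles, endosomes and mitochondria outward along microtubules in cells whether or not they divide. In the stratified epithelium of the esophagus, division is known to take place in and near the basal layer, and lymphocytes and other leukocytes of inflamed tissue can divide as well.

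Many genes of cell division carry in their promoters a cell cycle homology region, a short element of the form TTTGAA or TTCGAA bound by the DREAM and MuvB complexes, often together with CCAAT boxes bound by NF-Y. Promoters are therefore shown for mitotic kinesins whose nearest hexamer match began within 30 bases of the start site, with Kif18b given whole further below. They were picked by the match and not by their change. Kifc5b among them did not pass, and Kif2c, Kif14 and Kif18a, which were called, are not shown. Capitals mark the hexamer match nearest the start site, read on the strand of the gene, where TTCAAA is TTTGAA on the opposite strand. In Kif20b a further match adjoins it in lower case. The stretches are 60 bases each, from RefSeq on build GRCm38.p6.
Kif11 (chr19:37376336-37376395, + strand): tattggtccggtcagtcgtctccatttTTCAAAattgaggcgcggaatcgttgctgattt
Kif15 (chr9:122951035-122951094, + strand): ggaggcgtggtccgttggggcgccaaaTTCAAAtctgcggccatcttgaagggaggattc
Kifc1 (chr17:33890600-33890659, - strand): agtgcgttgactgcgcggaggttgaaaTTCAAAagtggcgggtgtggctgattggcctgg
Kifc5b (chr17:26917081-26917140, + strand): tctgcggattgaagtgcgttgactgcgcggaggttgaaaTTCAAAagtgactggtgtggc
Kif22 (chr7:127042405-127042464, - strand): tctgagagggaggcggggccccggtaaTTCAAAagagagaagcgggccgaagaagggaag
Kif4 (chrX:100626055-100626114, + strand): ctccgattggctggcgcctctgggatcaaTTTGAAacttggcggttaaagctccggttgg
Kif20b (chr19:34922338-34922397, + strand): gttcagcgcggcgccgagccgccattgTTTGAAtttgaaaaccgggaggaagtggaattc
Kif23 (chr9:61946765-61946824, - strand): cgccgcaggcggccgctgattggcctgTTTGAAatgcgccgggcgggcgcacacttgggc

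The whole 300 bases of a mitotic and a transport promoter, 250 before and 50 after the start site, are set side by side. Capitals mark the hexamer and CCAAT matches on the strand of the gene. The Kif18b promoter held both, and that of Kif1c held neither on either strand. This pair is an example and does not stand for all of either class. The mitotic Kif18a held neither, while the transport motor Kif1a held a hexamer and Kif1b held CCAAT boxes.
Kif18b (chr11:102925075-102925374, - strand): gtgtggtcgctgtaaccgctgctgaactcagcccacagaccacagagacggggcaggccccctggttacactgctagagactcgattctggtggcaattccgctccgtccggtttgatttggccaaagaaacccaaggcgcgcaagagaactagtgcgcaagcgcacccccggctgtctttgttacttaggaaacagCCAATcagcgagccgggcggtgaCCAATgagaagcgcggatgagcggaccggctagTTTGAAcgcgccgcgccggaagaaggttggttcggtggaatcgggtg
Kif1c (chr11:70700298-70700597, + strand): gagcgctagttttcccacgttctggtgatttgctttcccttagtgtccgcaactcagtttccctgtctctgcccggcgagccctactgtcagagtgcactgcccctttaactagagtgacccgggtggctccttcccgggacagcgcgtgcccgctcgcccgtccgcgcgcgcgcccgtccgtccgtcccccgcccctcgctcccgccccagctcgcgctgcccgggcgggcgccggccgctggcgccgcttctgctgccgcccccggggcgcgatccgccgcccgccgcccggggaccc

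A promoter was found for 33 of the 42 kinesins. Those without one in the table used were Kif20a, Kif13b, Kif21b, Kif5a, Kif5b, Kifc2, Kifc3, Kif19a and Kif28. The hexamer, TTTGAA or TTCGAA on either strand, was present in 11 of 13 mitotic promoters (84.6%), against 1 of 7 transport promoters (14.3%) and 5854 of 27025 genes of the whole promoter table (21.7%). All 11 mitotic promoters with a match held TTTGAA. The CCAAT box on either strand can overlap a hexamer by its end letters. It was present in 9 of 13 mitotic promoters (69.2%), 1 of 7 transport promoters and 41.1% of all genes. It was also present in 5 of 9 kinesin-2 or ciliary promoters (55.6%) and 1 of 4 of the remaining class, so it was not particular to the mitotic class. Hexamer and CCAAT box were both present in 8 of 13 mitotic promoters (61.5%) and in 8.61% of all genes. The same held for 0 of 7 transport promoters, 2 of 9 kinesin-2 or ciliary promoters (22.2%) and 1 of 4 of the remaining class.

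The mitotic match nearest the start site began within 30 bases of it for 9 of the 11, at position -19 in Kif11 and Kif15, -17 in Kif22, 2 in Kifc1, 3 in Kif23, 4 in Kif18b, 8 in Kif20b, 20 in Kif4 and 30 in Kifc5b. In Kif2c it began at -103 and in Kif14 at -228. Kif18a and Kif2b had no hexamer in these windows, and the only transport kinesin with one was Kif1a. In the ciliary class 2 of 9 genes, Kif24 and Kif27, and in the remaining class 1 of 4, Kif26b, had a hexamer. The Kifc1 and Kifc5b stretches shown above share most of their letters, as near copies of a gene do. A match is a run of letters in these windows, and no binding was measured.

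**Figure D1:**
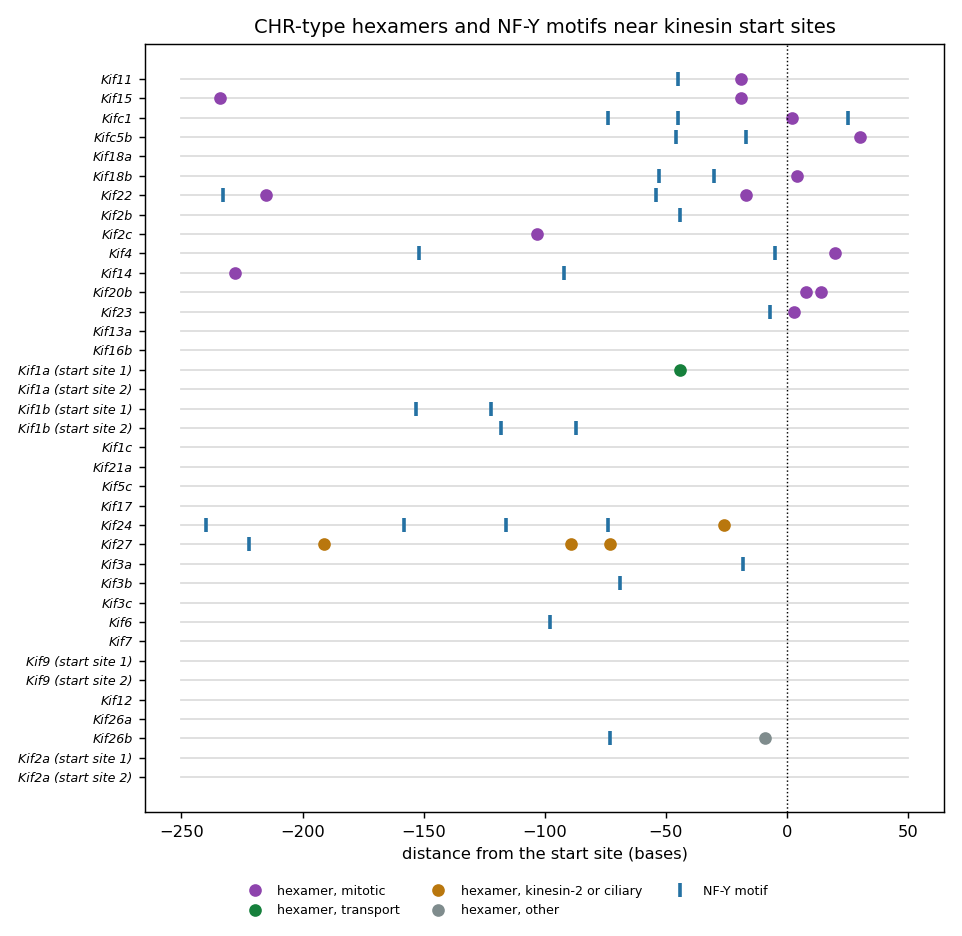
Positions of hexamer matches (circles, coloured by class) and of CCAAT boxes, the NF-Y motif (ticks), in bases from the annotated start site, with 1 line per 300-base promoter, mitotic kinesins on top. Hexamer matches lie near the start site in most mitotic promoters, and 1 of 7 transport kinesins has one.

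Depth ranged from 3675479 (D2) to 8364227 (D1) reads in OXA and from 5094159 (A5) to 12108822 (A4) in vehicle. The kinesins took 0.0817% to 0.104% of the reads of an OXA library and 0.0651% to 0.0902% of those of a vehicle library, or 3002 to 8736 and 3317 to 10074 reads. Values are normalized counts, and 3 reads, the most that a count of 0 allows, were worth 2.13 to 5.43 in OXA and 1.56 to 4.29 in vehicle, for counting error only. Differences are log2 fold changes, OXA over vehicle, on log2(value + 1), each with its standard error. The 1 added can shrink the change of low genes, but beside edgeR some low kinesins had a larger change and some a smaller one. Adjusted p-values are from limma with Benjamini-Hochberg adjustment over the 14712 genes whose mean reached 5. A gene is called below 0.05. Of all genes tested 2309 were called higher in OXA (15.7%) and 2085 lower (14.2%), and 29.9% in either direction. Scaling to library totals in place of the deposited factors moved the median change of all genes to 0.11, against -0.01, and the higher share of the calls to 65.4%, against 52.5%.

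Among the 34 kinesins tested, 13 were higher in OXA, 6 were lower and 15 did not pass, beside the 15.7% and 14.2% of all genes. Of the mitotic motors 12 of 13 tested were higher and none was lower, with a median of 2.48 and a range of 1.37 to 4.14. Of the transport motors 1 of 13 was higher and 4 were lower, with a median of 0.06 and a range of -1.35 to 1.78. That median was -0.35 without A3, -0.41 without A5, -0.39 with edgeR and -0.41 with DESeq2, whereas the mitotic median stayed between 2.12 and 2.79 over all alternatives. In kinesin-2 and the ciliary class 0 of 5 tested were higher and 1 was lower (median -0.76), and in the remaining class 0 of 3 were higher and 1 was lower (median -0.04). The remaining class holds Kif2a, a relative of the mitotic Kif2c, which did not pass (-0.04) and is not in the mitotic counts. Placed with the mitotic motors, Kif2a would lie below their range. The median over all genes tested was -0.01. The filter works on the mean of both groups, so Kif18b, Kif2c and Kifc5b among the mitotic motors and Kif5c among the transport motors, whose vehicle means were under 5, passed only with their OXA values, and Kif26b and Kif7 only with their vehicle values.

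**Figure D2:**
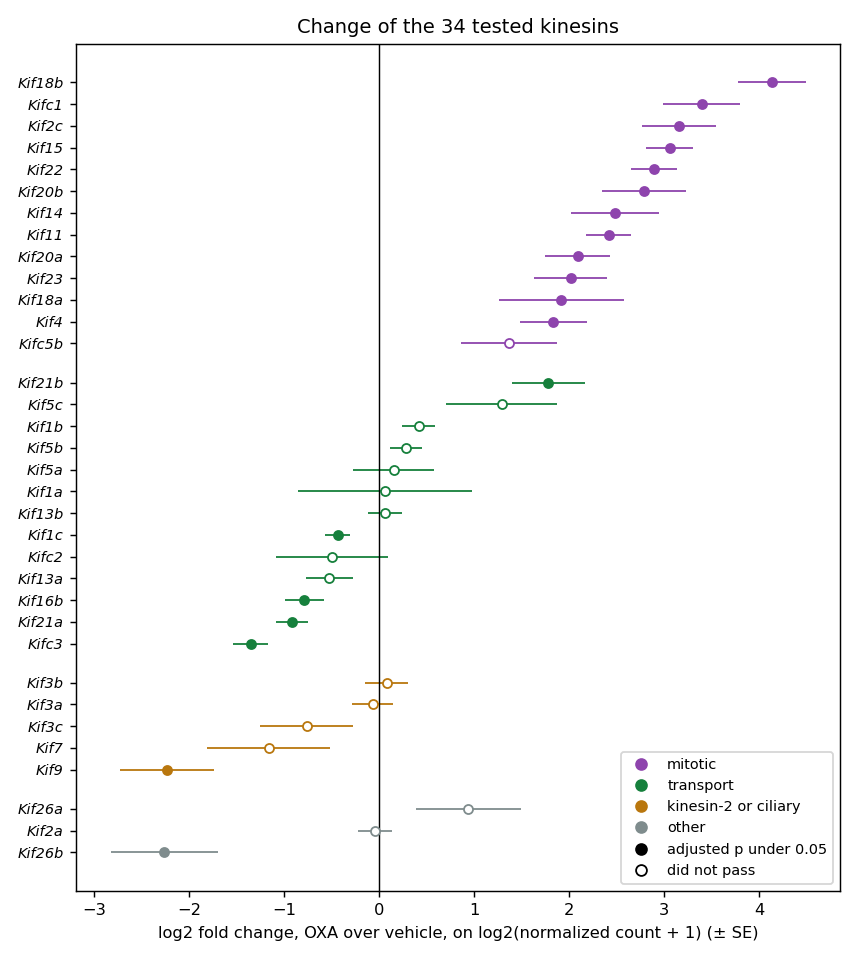
Log2 fold change, OXA over vehicle, with its standard error for each of the 34 kinesins tested, grouped by class and with filled circles where the adjusted p from limma was under 0.05. Mitotic kinesins lie between 1.37 and 4.14, and transport kinesins on both sides of 0, between -1.35 and 1.78.

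In 11 of the 13 mitotic kinesins tested every OXA library lay above every vehicle library, which was the case for 12.0% of all genes. The 2 exceptions were Kifc5b and Kif18a. Summed over the class, mitotic kinesins reached 678 to 1411 normalized counts in OXA (median 860) and 132 to 172 in vehicle (median 149). They made up 16.0% ± 4.36 of all kinesin counts in OXA and 2.81% ± 0.314 in vehicle (SD, n = 5 each). These counts are of 3′ ends and carry no length term. In bulk tissue, fewer cells of a type and less RNA per cell cannot be told apart, nor can more of either.

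Of the 4 spindle motors 3 were higher. Where 5 values are given for a group, they are those of C1, D1, D2, D3 and D4 in OXA and of A1 to A5 in vehicle. Kif11 (ENSMUSG00000012443.3, chromosome 19, 37376403 to 37422159), the kinesin also called Eg5 that separates the spindle poles, had 96.2, 64.7, 109, 113 and 117 in OXA, against 19.5, 18.0, 13.6, 14.0 and 24.3 in vehicle. The lowest OXA library, D1, stood well above the highest vehicle library. The means were 99.8 ± 21.1 in OXA and 17.9 ± 4.39 in vehicle (SD, n = 5 each), a log2 fold change of 2.42 ± 0.24 (adjusted p = 9.36e-06).

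Kif15 (ENSMUSG00000036768.6, chromosome 9, 122951046 to 123019033) holds the bipolar spindle together with Kif11. It had 129.8, 144, 154, 173 and 192 in OXA, against 28.8, 20.2, 13.6, 20.2 and 11.4 in vehicle, with no overlap, and a change of 3.06 ± 0.24 (adjusted p = 1.36e-06). Kifc1 (ENSMUSG00000079553.10, chromosome 17, 33875366 to 33890661), a minus-end motor that focuses the poles, had 80.2, 62.5, 86.9, 136 and 112 in OXA, against 8.22, 9.0, 1.95, 15.1 and 11.4 in vehicle. It rose by 3.39 ± 0.41 (adjusted p = 4.03e-05). Its near copy Kifc5b lay far lower, at 7.90 ± 3.19 in OXA and 2.47 ± 1.40 in vehicle. Kifc5b did not pass (1.37 ± 0.51, adjusted p = 0.0554), though it did in 6 of 21 alternatives. How reads that match both copies were counted is not given, so the split between this pair is uncertain.

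Motors of chromosomes and kinetochores included the largest change of the family. Kif18b (ENSMUSG00000051378.10, chromosome 11, 102905229 to 102925124), which trims astral microtubules, had 48.1, 34.1, 45.3, 39.3 and 52.7 in OXA, against 1.03, 2.25, 0.97, 1.04 and 2.86 in vehicle. Each vehicle library held 1 to 3 reads of it, at or under the floor, so the size of its change, 4.14 ± 0.35 (adjusted p = 2.53e-06), is imprecise: it was 2.88 with a pseudocount of 5, 4.73 with edgeR and 4.84 with DESeq2. Kif22, a chromokinesin that pushes chromosome arms outward, had 93.1, 90.3, 65.2, 92.9 and 112 in OXA, against 14.4, 10.5, 12.7, 7.79 and 11.4 in vehicle. It rose by 2.89 ± 0.24 (adjusted p = 1.74e-06), with the lowest OXA library far above every vehicle library.

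Kif2c, or MCAK, takes apart microtubule ends at kinetochores that are wrongly attached. Its values were 48.9, 32.0, 76.0, 23.0 and 62.3 in OXA, against 3.08, 3.0, 5.85, 6.75 and 2.86 in vehicle. The OXA libraries spread widely and none came near the vehicle range; the change was 3.16 ± 0.39 (adjusted p = 5.06e-05), or 2.44 with a pseudocount of 5. Kif4, a chromokinesin that also works with Prc1 at the spindle midzone, stood at 58.0 ± 12.9 in OXA and 17.1 ± 8.85 in vehicle (1.83 ± 0.35, adjusted p = 0.00151). D1, its lowest OXA library at 37.7, was above A5, its highest vehicle library at 30.1.

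Kif18a, which damps chromosome oscillation at the metaphase plate, was the weakest call among these motors. It had 32.1, 10.7, 12.7, 21.1 and 47.9 in OXA, against 12.3, 4.50, 7.80, 10.4 and 0 in vehicle, and the groups overlapped. The change was 1.92 ± 0.66 (adjusted p = 0.0417). This call did not hold in 10 of 21 alternatives. Those included leaving out A2, A3, A5, C1, D3 or D4, each alone (adjusted p between 0.0536 and 0.101). Without A5, where it was listed at 0, the change was 1.28. Kif2b, the remaining motor of this role, had no read in any library, where a count of 0 allows up to 3 reads.

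At the midzone and in cytokinesis all 4 motors rose, by 2.02 to 2.79. Kif23 (ENSMUSG00000032254.10, chromosome 9, 61915605 to 61946774), the motor subunit of centralspindlin, had 152, 97.4, 96.0, 103 and 433 in OXA, against 58.5, 36.0, 37.0, 22.3 and 30.1 in vehicle. D4 stood far above the other OXA libraries, and each of those was still above every vehicle library. The change was 2.02 ± 0.38 (adjusted p = 0.00136), and 1.62 without D4. Kif20a, which brings the chromosomal passenger complex to the midzone, had 41.2, 37.0, 41.6, 39.3 and 65.5 in OXA, against 11.3, 14.2, 3.90, 8.31 and 14.3 in vehicle (2.09 ± 0.34, adjusted p = 4.94e-04). Here too D4 was the highest, with the other OXA libraries close together. The gene Cdc23, read from the opposite strand, lies within the last 1000 bases of Kif20a and had a change of -0.43 (adjusted p = 0.0573), and the strand setting of the counting is not given.

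Kif14, a motor of late cytokinesis, stood at 35.4 ± 10.9 in OXA and 6.42 ± 4.09 in vehicle (2.48 ± 0.46, adjusted p = 0.00123), with the lowest OXA library at 21.7 and the highest vehicle library at 11.7. Kif20b, which acts in abscission, had 41.2, 31.3, 19.9, 28.7 and 86.2 in OXA, against 3.08, 11.2, 4.87, 3.12 and 2.86 in vehicle. Its OXA libraries ranged widely with D4 on top and A2 the highest vehicle library, without overlap. The change was 2.79 ± 0.45 (adjusted p = 3.91e-04).

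**Figure D3:**
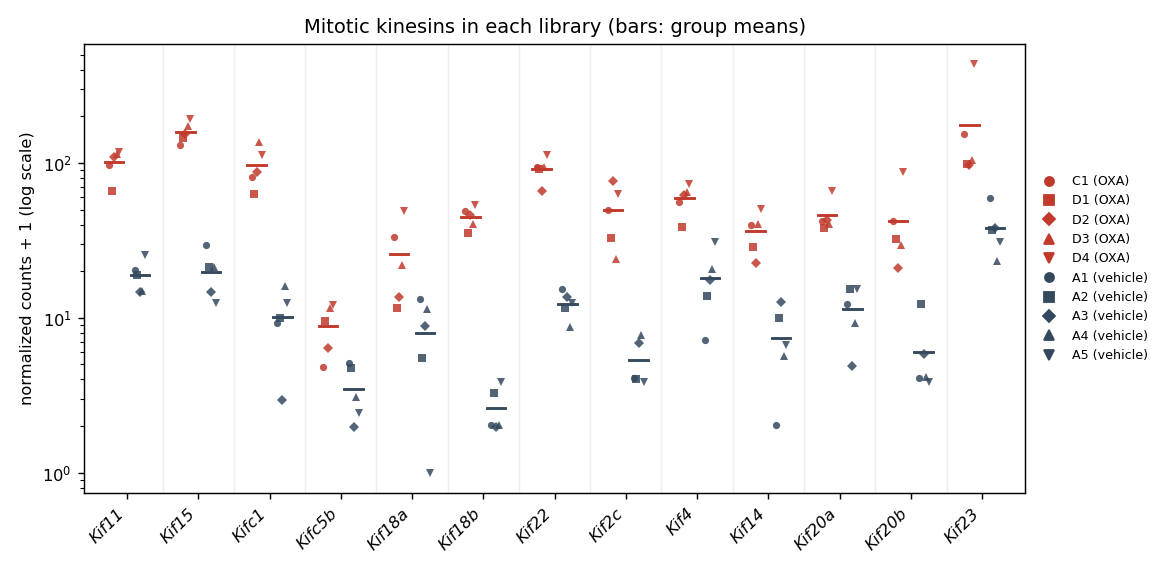
Normalized counts + 1 of the mitotic kinesins in each of the 10 libraries on a log axis, OXA libraries left of vehicle libraries, with the mean of each group. Every OXA point lies above every vehicle point in all but Kif18a and Kifc5b, and D4 is the highest OXA point for Kif23, Kif20a and Kif20b.

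The OXA libraries at the ends of the range were often the same ones. D4 held the highest OXA value for 11 of the 13 tested and D1 the lowest for 6. The class sum was 1411 in D4, 678 in D1 and between 795 and 884 in the other 3 OXA libraries. Mki67 and Top2a, markers of proliferating cells, followed the same order at the ends, with a summed 3178 in D4 and 1549 in D1.

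Set against those markers, the mitotic kinesins amounted to 33.8 to 44.4 counts per 100 counts of Mki67 and Top2a in OXA and to 48.6 to 78.4 in vehicle, without overlap. Against the sum of all 14 proliferation markers, a comparison added after these values were seen, the order was the opposite, 16.6 to 21.2 per 100 in OXA and 8.01 to 11.6 in vehicle, again without overlap, so the direction of such a ratio depends on the markers chosen. Top2a changed by 3.23 ± 0.18 and Mki67 by 3.72 ± 0.21, and Ccna2 and Rrm2 by 3.31 ± 0.29 and 2.22 ± 0.23. These 4 were the list members with the smallest p. Over all 14 the median was 0.96, with 8 higher and none lower, beside 15.7% and 14.2% of all genes.

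The partners of the mitotic kinesins were higher too, 26 of 27 with none lower (median 2.64), beside 15.7% and 14.2% of all genes. In all 26 every OXA library lay above the vehicle range, as in 12.0% of all genes. Prc1, which bundles the midzone microtubules on which Kif4 and Kif20a work, had 368, 291, 289.7, 464 and 369 in OXA, against 23.6, 35.2, 24.4, 21.3 and 38.6 in vehicle (3.61 ± 0.21, adjusted p = 7.66e-08). Every OXA library was far above every vehicle library. The kinase Plk1 changed by 4.56 ± 0.28, the spindle kinase Aurka by 3.07 ± 0.23 and Cdca8, a subunit of the chromosomal passenger complex, by 2.67 ± 0.20.

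Markers of leukocytes, which can divide in inflamed tissue, were higher as well. Of 14 lymphocyte markers tested 12 were higher, with sums of 1724 to 5716 in OXA and 181 to 1036 in vehicle, and of 9 myeloid markers 8 were higher, with sums of 2664 to 5663 in OXA and 1431 to 2227 in vehicle. Ccr3 and Epx of the myeloid list were listed at 0 in every vehicle library. Squamous epithelium markers, all 10 of which were tested, had 3 higher and 2 lower, among them Krt14 at 2.18 ± 0.25 and Krt15 at -2.03 ± 0.28, and sums of 226295 to 549187 in OXA and 597331 to 1010900 in vehicle. Of 10 fibroblast and endothelial markers 2 were higher, and of 8 smooth muscle markers 3 were lower. Smooth muscle sums were 11777 to 25096 in OXA and 18242 to 33026 in vehicle. Beside the counts of all these lists, 15.7% of all genes tested were higher and 14.2% lower. The fibroblast and endothelial count was near that share. The part of the cells marked by these lists in the mitotic values was not tested.

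The transport motors served as the comparison within the family. Their sum was 4016 to 5254 in OXA and 4318 to 5262 in vehicle, ranges that overlapped for the most part. Kif1c, Kif5b and Kif1b together made up 78.6% to 85.0% of that sum in OXA and 76.6% to 78.9% in vehicle. Mitotic kinesins stood at 12.9 to 31.7 counts per 100 transport counts in OXA and at 2.70 to 3.48 in vehicle.

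**Figure D4:**
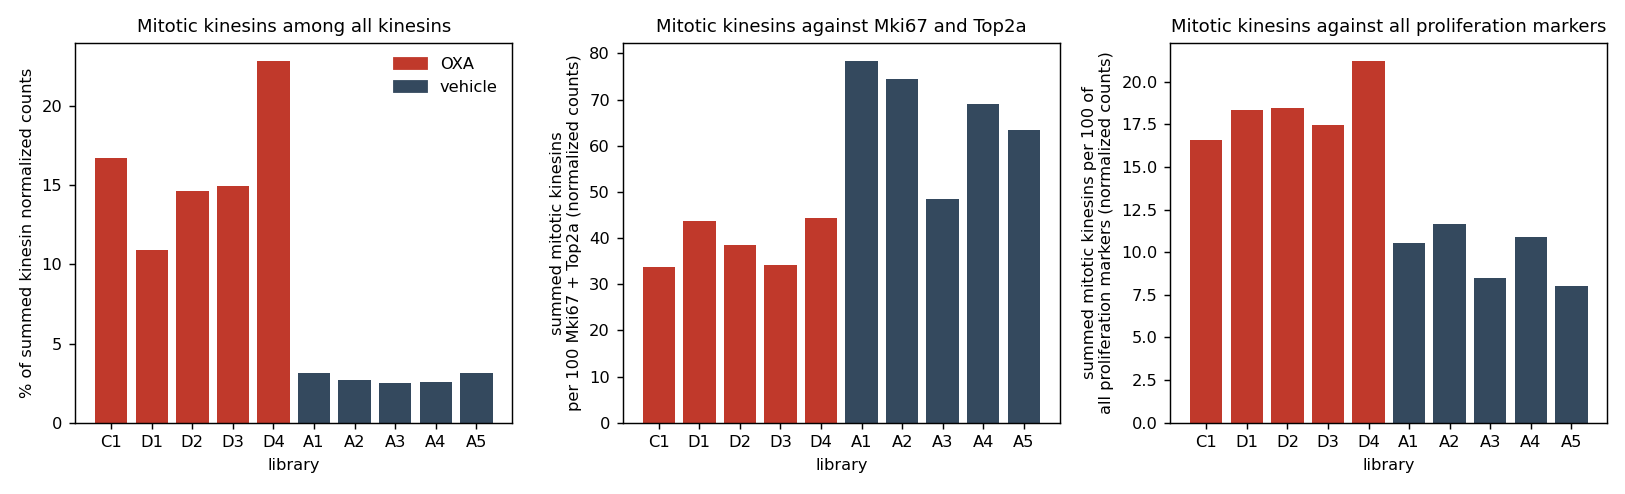
Bars for each library, OXA libraries left of vehicle libraries, of the mitotic share of summed kinesin normalized counts in percent (left panel), of mitotic kinesin counts per 100 counts of Mki67 and Top2a (middle panel) and of the same per 100 counts of all 14 proliferation markers (right panel). The share lies between 10.9% and 22.8% in OXA and between 2.48% and 3.15% in vehicle, while the ratio is lower in OXA against Mki67 and Top2a (33.8 to 44.4 in OXA, 48.6 to 78.4 in vehicle) and higher in OXA against all 14 markers (16.6 to 21.2 in OXA, 8.01 to 11.6 in vehicle).

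Kif5b (ENSMUSG00000006740.13, chromosome 18, 6200702 to 6242174) is the heavy chain of kinesin-1 found in most tissues. It had 1353, 1714, 1358, 1313 and 1497 in OXA, against 1102, 1439, 1307, 1394 and 807 in vehicle, and the groups overlapped. The change was 0.28 ± 0.17 and did not pass (adjusted p = 0.217, and 0.109 to 0.477 over the alternatives).

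Kif1b (ENSMUSG00000063077.14, chromosome 4, 149176019 to 149307693) carries mitochondria and precursors of synaptic vesicles. It had 814, 1213, 681, 1113 and 935 in OXA, against 754, 865, 678, 688 and 545 in vehicle. D1 and D3 were the highest, and C1 and D2 lay within the vehicle range. The change of 0.41 ± 0.17 did not pass (adjusted p = 0.0873). It passed without D2 (adjusted p = 0.0262), without A5, D2 and D4 (adjusted p = 0.0449) and with a skeletal muscle marker score as covariate (0.56, adjusted p = 0.00545). The skeletal muscle gene Ckm was also highest among OXA libraries in D1 and D3, at 35129 and 31664, and stood at 10260 to 15505 in the other 3. Of 13 skeletal muscle markers tested 2 were lower, near the 14.2% of all genes. The changes of 12 of the 13 were negative (median -0.31), as were those of 7441 of the 14712 genes tested. The skeletal muscle marker sums were 98710 to 364270 in OXA (median 141881) and 193298 to 260883 in vehicle (median 237400).

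Among the other kinesin-1 chains Kif5a, known mainly from neurons, had 5.43 to 13.7 in OXA and 3.90 to 16.5 in vehicle (0.15 ± 0.43, adjusted p = 0.817), and Kif5c, also mainly neuronal, stood at 11.1 ± 3.53 in OXA and 4.94 ± 3.22 in vehicle (1.29 ± 0.59, adjusted p = 0.115). Kif1a, the neuronal carrier of synaptic vesicle precursors, had 1.81 to 17.2 in OXA and 0 to 30.8 in vehicle, and its fitted change of 0.06 ± 0.91 turned to -0.70 with edgeR. Of 12 neuron and Schwann cell markers tested 1 was higher and none lower, where 15.7% and 14.2% of all genes were. The sums of this list were 284 to 861 in OXA and 311 to 1087 in vehicle. For none of these 3 motors was a difference detectable at this depth.

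Kif1c (ENSMUSG00000020821.17, chromosome 11, 70700548 to 70732264), a fast carrier of vesicles whose promoter is shown above, was lower in OXA. It had 1150.3, 1540, 1416, 1407 and 1263 in OXA, against 2030, 1822, 1793, 1560 and 1957 in vehicle. The highest OXA library lay just under the lowest vehicle library. The change was -0.44 ± 0.13 (adjusted p = 0.0207), and the call was lost after scaling to library totals (-0.31, adjusted p = 0.0700), without A5, D2 and D4 (adjusted p = 0.0596), without A1 (adjusted p = 0.0571) and without C1 (adjusted p = 0.0625).

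Of the transport motors 3 more were lower, and like Kif1c all 3 had every OXA library below every vehicle library, as 10.4% of all genes did. Kifc3 (ENSMUSG00000031788.14, chromosome 8, 95099528 to 95202812), a minus-end motor known at the junctions of epithelial cells, had 51.1, 53.3, 67.0, 75.7 and 41.5 in OXA, against 130.4, 154, 140.3, 138 and 167 in vehicle. Its change was -1.35 ± 0.18 (adjusted p = 1.12e-04).

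Kif21a, which slows microtubule growth at the cell edge, had 104, 114, 132, 135 and 195 in OXA, against 265, 272, 233, 258 and 233 in vehicle. Its vehicle libraries were close together and all above D4, the highest OXA library. The change was -0.92 ± 0.17 (adjusted p = 0.00103). Kif16b, which moves early endosomes, had 65.7, 37.0, 61.6, 61.3 and 47.9 in OXA, against 90.4, 89.2, 123, 86.7 and 81.6 in vehicle (-0.79 ± 0.20, adjusted p = 0.00961).

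Kif21b was the only transport motor called higher. A relative of Kif21a that also acts on microtubule growth and is known from neurons and lymphocytes, it had 35.9, 27.0, 18.1, 33.5 and 30.3 in OXA, against 4.11, 6.75, 12.7, 14.5 and 4.29 in vehicle. The groups did not overlap, and the change was 1.78 ± 0.39 (adjusted p = 0.00333). This pair of related motors thus had changes of opposite sign, both called and both with the same sign under all alternatives run. Lymphocyte markers were higher in the same libraries, as given above, and their part in the Kif21b value was not tested.

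Kif13a, which carries recycling endosomes, had 132, 211, 90.5, 204 and 81.4 in OXA, against 211, 212, 180.3, 183 and 177 in vehicle. D1 and D3 lay within the vehicle range and the other 3 OXA libraries under it. It did not pass (-0.52 ± 0.25, adjusted p = 0.129), though it did without D1 (-0.69, adjusted p = 0.0398). The change shrank to -0.13 without A5, D2 and D4 (adjusted p = 0.623). With a skeletal muscle marker score as covariate it was -0.24 (adjusted p = 0.217). Its relative Kif13b stood at 361 ± 111 in OXA and 337 ± 40.8 in vehicle (0.06 ± 0.18). Kifc2, a minus-end motor of neurons, stood at 5.99 ± 5.44 in OXA and 9.20 ± 7.45 in vehicle (-0.50 ± 0.59). Neither passed.

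**Figure D5:**
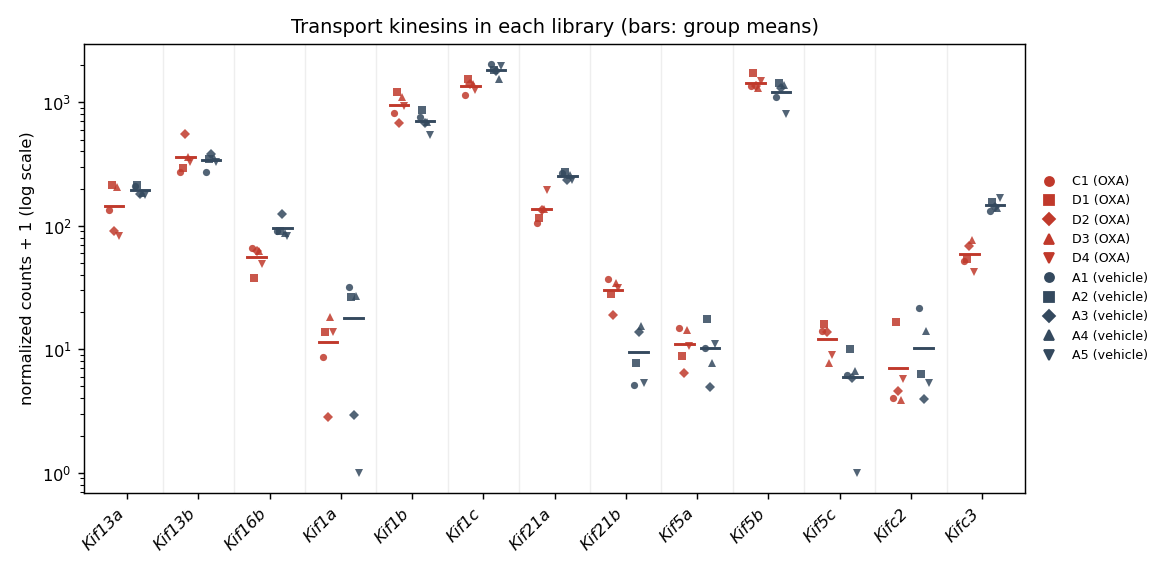
Normalized counts + 1 of the transport kinesins in each of the 10 libraries on a log axis, OXA libraries left of vehicle libraries, with the mean of each group. Kifc3, Kif21a, Kif16b and Kif1c have all OXA points below the vehicle points, Kif21b has them above, and the groups overlap for Kif5b and Kif1b.

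Of 22 partners of the transport motors tested 2 were higher and 3 lower (median -0.23), where 15.7% and 14.2% of all genes were, so these shares were not above the background. Klc3, a light chain of kinesin-1, had 108, 86.7, 147, 118 and 89.4 in OXA, against 264, 227, 305, 251 and 385 in vehicle. Every OXA library was below every vehicle library, with a change of -1.38 ± 0.19 (adjusted p = 9.96e-05). Map7, which recruits kinesin-1 to microtubules, changed by -1.13 ± 0.24, the cargo adaptor Mapk8ip1 by -1.22 ± 0.34 and Madd, an adaptor of Kif1a and Kif1b, by 0.69 ± 0.20. Mapk8ip1 lost its call with no filter on low values (adjusted p = 0.0568).

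Dynein and dynactin, the machinery of movement in the opposite direction, had 4 of 28 higher and 4 lower (median -0.03), shares near the 15.7% and 14.2% of all genes. Nde1, a dynein regulator that also acts in mitosis, changed by 0.63 ± 0.15 and the dynactin subunit Dctn1 by 0.52 ± 0.14, while the light chain Dynll1 changed by -0.73 ± 0.18 and the dynactin subunit Dctn2 by -0.54 ± 0.14. Tubulins, the subunits of the track itself, had 7 of 16 higher and 2 lower (median 0.27, range -1.43 to 1.38). Those with the smallest p were Tubb2b at 1.38 ± 0.19, Tuba1c at 1.28 ± 0.16, Tubb5 at 1.05 ± 0.17 and Tubb6 at 0.90 ± 0.17. All of these single genes were called.

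Kinesin-2 and the ciliary kinesins build and work in cilia, and kinesin-2 also carries cargo in the cytoplasm. Kif3a and Kif3b, the motor pair of kinesin-2, stood at 58.3 ± 9.38 and 37.1 ± 4.63 in OXA, against 62.0 ± 14.9 and 35.7 ± 8.92 in vehicle. Neither passed, with changes of -0.07 ± 0.22 and 0.08 ± 0.23, and that of Kif3a was 0.06 after scaling to library totals. Kif3c, a further kinesin-2 motor, was at 5.43 to 55.5 in OXA and 20.03 to 57.6 in vehicle (-0.76 ± 0.49, adjusted p = 0.255).

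Kif9, known from cilia and the sperm tail, was the one called gene of this class. It had 19.9, 1.42, 14.5, 4.79 and 11.2 in OXA, against 49.3, 46.5, 44.8, 30.6 and 35.8 in vehicle. The highest OXA library, C1, was under the lowest vehicle library, and the change was -2.24 ± 0.50 (adjusted p = 0.00395). Of 12 multiciliated cell markers only Tppp3 was tested (-0.25, not passed), and Dnah5 was listed at 0 in every vehicle library. Kif7, a regulator of Hedgehog signalling at the cilium, stood at 4.61 ± 4.29 in OXA and 8.99 ± 3.97 in vehicle and did not pass (-1.16 ± 0.64, adjusted p = 0.191). Ticrr, on the opposite strand within the last 1000 bases of Kif7, changed by 1.23 (adjusted p = 0.0110).

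In the remaining class Kif26b, a kinesin that lacks ATPase activity and is known from kidney development, had 1.53, 6.40, 0, 0.96 and 3.19 in OXA, against 7.19, 16.5, 14.6, 13.0 and 11.4 in vehicle. Its OXA libraries held 14 reads in all and its vehicle libraries 77. The groups did not overlap, and the change was -2.26 ± 0.56 (adjusted p = 0.00787), or -1.28 with a pseudocount of 5. Its relative Kif26a stood at 14.0 ± 8.06 in OXA and 6.74 ± 5.04 in vehicle and did not pass (0.94 ± 0.55, adjusted p = 0.216). Kif2a, the depolymerase related to Kif2c, stood at 110.0 ± 22.0 in OXA and 113 ± 17.0 in vehicle (-0.04 ± 0.18), which turned to 0.09 after scaling to library totals. Its place in the remaining class leaves this gene out of the counts, median and range of the mitotic class. With Kif2a counted there, the mitotic class would hold a further member that did not pass. Its range would then begin at -0.04. Kif2c and Kif2a, close relatives in function, thus had a change of 3.16 ± 0.39 and one that did not pass (adjusted p = 0.879); the difference between the 2 genes was not tested.

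The other 8 kinesins had a mean under 5 and were left out of the fit. Kif2b and Kif12 had no read in any library. For the other 6 an exact two-sided permutation test of the difference in means was run over the 252 ways of dividing the libraries, with a smallest possible p of 0.00794 and no adjustment. Kif28 averaged 1.73 in OXA and 3.66 in vehicle (exact permutation p = 0.0397), both near the floor. Kif17, a motor of dendrites and cilia, averaged 2.40 in OXA and 0.552 in vehicle, and Kif24, which acts at centrioles, 3.60 in OXA and 1.28 in vehicle (exact permutation p = 0.151 for both). Kif19a, which limits the length of cilia, averaged 0.462 in OXA and was at 0 in vehicle (exact permutation p = 0.444). Kif27 averaged 1.28 in OXA and 1.22 in vehicle, and Kif6 averaged 0.638 in OXA and 0.71 in vehicle (exact permutation p = 1 for both). No difference in these 5 was detectable at this depth.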

How the data were processed

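CEL-Seq libraries from TRIZOL-extracted RNA were sequenced on an Illumina HiSeq, per the labels' protocols. The authors deposited a normalized signal for each gene in each library. The values show it to be gene counts over a size factor: division by 1 step per library gave whole reads for 100% of values within 0.006. Per the submitters' processing notes, which state neither role nor order, the tools were DESeq2 1.18.1, HTSeq 0.11.2, Bowtie2 2.2.6, TopHat2 2.1.0, cutadapt 1.10, Trim Galore and FastQC 0.11.5, and the build GRCm38. The annotation release, strand setting, handling of reads that match several genes and any molecular identifiers are not stated there. Reads without such identifiers are not independent molecules.

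Gene ends in the table ran exactly 300 bases past those of GENCODE M21 for 39 of the 42 kinesins and 36.4% of matched genes. Another gene lay in the last 1000 bases of 11 kinesins. Since the values are not counts, limma 3.58.1 (R 4.3.3, mean-variance trend) was fitted to log2(value + 1) for the 14712 genes whose mean over all 10 libraries reached 5, with no covariate. Adjusted p-values under 0.05 were called. Alternatives were other pseudocounts (0.5, 5), filters (none, 1, 20) and scalings, edgeR 4.0.16 and DESeq2 1.42.0 on recovered reads, a skeletal muscle score, and leaving out libraries. The limma fit was tested on simulated data. All kinesins may be named, with at most 4 genes of each other list, those with the smallest p. The members and lists were chosen with earlier results of these data known. Promoters were matched by symbol to RefSeq (GRCm38.p6).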

Additional observations from a re-analysis of the deposited data

Results flagged for a closer look

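In 8 of the 79 groups of 5 libraries examined (kinesins with a read, by group), 1 library lay far from the other 4 by Dixon's criterion. For normally distributed values chance flags about 1 in 20. That rate does not hold for groups of a few reads, such as Kif6 in OXA, so no excess can be read from this count. In OXA, D4 was high for Kif23, at 432.61 normalized counts against 95.95 to 151.9 in the other OXA libraries, and for Kif20a, at 65.45 against 36.96 to 41.64. Without D4 both kept their call, with log2 fold changes of 1.62 and 1.95. D4 was also high for Kif6, at 3.19 against 0, which is 2 reads. D1 was high for Kifc2, at 15.64 against 2.87 to 4.79.

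Among vehicle libraries A2 was high for Kif20b, at 11.25 against 2.86 to 4.87, and without it the change was 3.08. A3 was high for Kif16b, at 122.77 against 81.56 to 90.39, and without it the change was -0.69 (limma adjusted p = 0.0308). A1 was high for Kif24, at 5.14 against 0 to 0.75, and for Kif27, at 4.11 against 0 to 1.04.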

How the results depend on the processing

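Over the 22 alternatives the number of kinesins higher in OXA ranged from 11 to 14 and of those lower from 5 to 7, mitotic kinesins higher from 11 to 13 and transport kinesins called from 4 to 6. The mitotic median ranged from 2.12 to 2.79. Of 738 values of single kinesins 692 kept direction and call, 14 lost a call, 10 gained one and 22 changed sign, none of those 22 called; no mitotic kinesin changed sign. The transport median moved to -0.48 at a mean of at least 20, -0.39 with edgeR and -0.41 with DESeq2, and ranged from -0.41 (without A5) to 0.080 when a library was left out. Fewer genes are tested at the higher mean. The middle gene of the class was Kif13b in the main fit (0.06), Kif13a with edgeR and DESeq2, and Kif1c without A5. In these alternatives Kif1a, low and widely spread, had turned negative, so the median hung on the sign of Kif1a. Why Kif1a changed sign was not tested. Sign changes: Kif1a was at -0.19 with a pseudocount of 5 and with quantile normalization, -0.70 with edgeR, -0.69 with DESeq2, -0.31 without A5, D2 and D4, and -0.74 to 0.51 with a library left out. Kif13b was at -0.13 without A5, D2 and D4 and at -0.10 to 0.15 with a library left out. After scaling to library totals Kif2a was at 0.086 and Kif3a at 0.058, and with a library left out at -0.14 to 0.042 and -0.19 to 0.037. Kif5a was at -0.0016 with quantile normalization and -0.084 to 0.38 with a library left out. With a pseudocount of 5 the fold changes of 6 called kinesins moved by over 1.5 times: Kif18b (2.88), Kif26b (-1.28), Kif2c (2.44), Kif20b (2.12), Kif18a (1.29) and Kif14 (1.86). No paired analysis was possible because the replicate names are not shared between the groups. Depth limits the kinesins near 3 reads a library, Kif18b in vehicle and Kif26b in OXA among them.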
